A study of Homo sapiens with 16 samples.

Results

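The genes described here encode the enzymes that remove SUMO from proteins and the SUMO proteins themselves. SUMO proteins are small relatives of ubiquitin that become attached to lysines of other proteins, many of them in the nucleus. SUMO2 and SUMO3 are nearly identical and form chains. Proteases of the SENP family trim newly made SUMO to its mature end and cut it off its targets. RBM33 is an RNA-binding protein reported to bring SENP1 to ALKBH5, a demethylase that erases m6A, the commonest internal methyl mark of mRNA, so the mRNAs of this system are of interest in pull-downs of both proteins. The members were chosen by gene name: the 6 SUMO proteases SENP1, SENP2, SENP3, SENP5, SENP6 and SENP7 and the 2 modifiers SUMO2 and SUMO3. All 8 had a row in each of the authors' deposited tables, which list 16324 genes.

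The study sequenced RNA bound to Strep-tagged proteins (RIP-seq) in UM-SCC-1 cells, as the labels call them; UM-SCC-1 is an established line derived from a head and neck squamous carcinoma. Cells were infected with lentivirus for the tag alone (Vec), strep-ALKBH5 or strep-RBM33 and selected with puromycin, so both baits were overexpressed on top of the cells' own protein. The 16 libraries are pull-downs with StrepTactin-XT beads (3 of Vec, 3 of ALKBH5 and 2 of RBM33) and untreated inputs in the same numbers. The data used here are 2 tables of comparisons made by the authors, one per bait, both labelled siCtrl, a treatment that no library title names. For every gene they hold the average log2 CPM (abundance relative to library size), the log2 fold change and its adjusted p, and libraries have no values of their own, so depth and spread between replicates are unknown here. Separate cultures are not stated for the replicates, and the spread behind the p-values may be technical.

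The tables state neither the groups compared nor the direction of the ratio, and whether they share libraries is not stated either. Values are therefore called positive or negative as the tables have them. ALKBH5 mRNA stood at a log2 fold change of 1.28 (adjusted p = 0.00158) in the authors' deposited ALKBH5 table and RBM33 mRNA at 3.41 (adjusted p = 5.14e-05) in the one for RBM33. These bait values do not settle the sign for other genes, since pull-down and input of a bait both carry its overexpressed mRNA. Of 10 squamous epithelial marker genes, only DSC3 had a row in the authors' deposited tables (average log2 CPM 5.05 and 5.46), and the basal keratins KRT5 and KRT14 and the transcription factor TP63 had none. All 6 genes of an embryonic kidney line list had one, over a wide range of average log2 CPM. The neurofilament NEFL was the most abundant, at 8.10 and 7.42 in the authors' deposited tables for ALKBH5 and RBM33. LHX1 (1.79 and 0.72), PAX2 (1.83 and 1.85) and CHGA (-0.29 and 1.51) were low by average log2 CPM in the authors' deposited tables, so this list gives the cells no name either. None of 6 leukocyte markers and 3 of 6 fibroblast markers had a row. The cells are called by their label for this reason, and the part of cell identity in the results was not tested.

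Most SUMO protease and modifier mRNAs were negative in both tables, and a single protease, SENP7, was positive in both. In the authors' deposited ALKBH5 table, 5 of the 8 mRNAs were negative and 1 was positive at the authors' adjusted p under 0.05, whereas 29.1% of all listed genes were negative and 30.5% positive. The authors' deposited table for RBM33 had 5 negative members and 1 positive one, against 27.0% and 24.0% of all genes. SENP5 and SENP6 were called in neither. The members' median log2 fold change was -0.81 in the authors' deposited ALKBH5 table and -0.72 in the one for RBM33, beside medians of 0.03 and -0.02 over all listed genes. Over the 13210 protein-coding genes, to which all members belong, the medians were -0.08 and -0.13 in the authors' deposited tables. Of these genes, 4397 were negative and 3632 positive in the authors' deposited ALKBH5 table, and 4120 and 2838 in the RBM33 one. Without SENP3 and SUMO2, whose spans overlap another listed gene on the same strand, the median of the other 6 was -0.37 and -0.33 in the authors' deposited tables. At a threshold of 0.01, 5 members were negative and 1 positive in the authors' deposited ALKBH5 table (23.6% and 24.4% of all genes), and 4 and 1 in the RBM33 one (21.0% and 16.6%). With a minimum of 1 log2 unit, the counts were 4 and 1 in the authors' deposited ALKBH5 table (16.2% and 21.0% of all genes) and 3 and 1 in the RBM33 one (16.7% and 17.1%). Calls in both directions were so common that a count over 8 genes says little by itself, and the account below goes by gene.

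**Figure D1:**
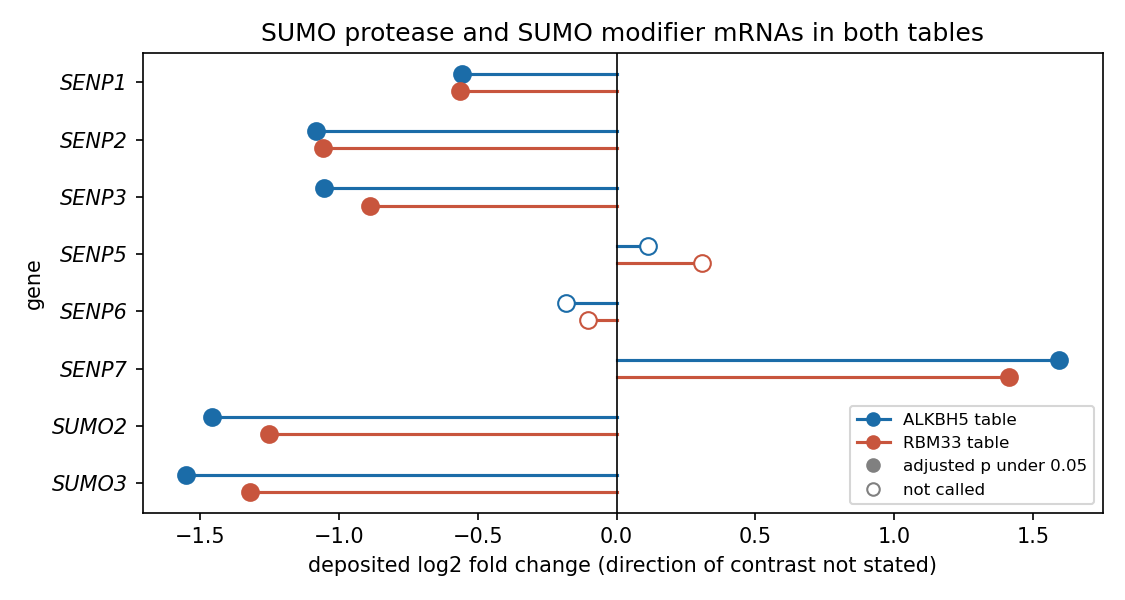
Deposited log2 fold changes (horizontal axis, log2 units) of the 8 mRNAs (vertical axis) in the tables for ALKBH5 (blue) and RBM33 (red); filled points have an adjusted p under 0.05 and open points were not called. SENP7 alone lies far to the positive side, at 1.59 and 1.41, and SUMO2 and SUMO3 lie farthest to the negative side in both tables.

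SENP1 and SENP2 form the branch of the family that matures SUMO precursors and removes single SUMO proteins from many nuclear targets. SENP1 (ENSG00000079387, chromosome 12, 48042897 to 48106079, minus strand, hg38), the protease reported to work with RBM33 on ALKBH5, stood at -0.56 in the authors' deposited ALKBH5 table (adjusted p = 0.00329). It stood at -0.56 as well in the authors' deposited RBM33 table (adjusted p = 0.0126). SENP1 had the smallest difference between the authors' deposited tables among the 8 members, and among protein-coding genes it was of middling rank, with 32.3% of them lower for ALKBH5. Its call is the least firm of the negative ones, since it does not pass at a threshold of 0.01 in the authors' deposited RBM33 table. The first 941 bases of its span overlap PFKM, a glycolytic enzyme gene on the opposite strand, which stood at -0.05 in each of the authors' deposited tables and was not called. SENP2 (ENSG00000163904, chromosome 3, 185582496 to 185633551, plus strand), which is found at nuclear pores, was more negative, at -1.08 (adjusted p = 1.44e-05) and -1.06 (adjusted p = 0.000291) in the authors' deposited tables for ALKBH5 and RBM33. No other listed gene overlaps SENP2. SENP1 was thus higher than its closest relative by 0.52 log2 units in the authors' deposited ALKBH5 table and by 0.49 in the one for RBM33, a difference between genes that was not tested.

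SENP3 and SENP5 are the nucleolar proteases, which act by preference on SUMO2 and SUMO3 and take part in ribosome assembly. Their mRNAs lay apart. SENP3 (ENSG00000161956, chromosome 17, 7561919 to 7571969, plus strand) stood at -1.05 (adjusted p = 1.26e-05) and -0.89 (adjusted p = 0.000523) in the authors' deposited tables for ALKBH5 and RBM33. SENP5 (ENSG00000119231, chromosome 3, 196867856 to 196934714, plus strand) stood at 0.11 (adjusted p = 0.56) and 0.31 (adjusted p = 0.148) in the same order in the authors' deposited tables and was called in neither. SENP3 was lower than SENP5 by 1.17 log2 units in the authors' deposited ALKBH5 table and by 1.19 in the one for RBM33. The SENP3 value may hold reads of another annotated gene. SENP3-EIF4A1, a readthrough gene that joins SENP3 to the translation initiation helicase EIF4A1, covers 8683 bases of its span on the same strand. The readthrough gene stood at -0.86 (adjusted p = 8.76e-05) and -0.94 (adjusted p = 0.000267) in the authors' deposited tables, close to SENP3, and how reads were divided between the pair is not stated.

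SENP6 and SENP7 are the chain-editing branch, which takes apart chains of SUMO2 and SUMO3 and has little part in maturing the precursors. Of the 3 pairs of close relatives, this one stood farthest apart. SENP6 (ENSG00000112701, chromosome 6, 75601509 to 75718281, plus strand) stood at -0.18 (adjusted p = 0.271) and -0.10 (adjusted p = 0.587) in the authors' deposited tables for ALKBH5 and RBM33 and was not called. SENP7 (ENSG00000138468, chromosome 3, 101324205 to 101513241, minus strand), which acts on SUMO at heterochromatin, stood at 1.59 (adjusted p = 0.000141) and 1.41 (adjusted p = 0.000683) in the authors' deposited ALKBH5 and RBM33 tables. These values correspond to 3.02-fold and 2.66-fold in the authors' deposited tables. Of all protein-coding genes, 91.9% lay below SENP7 in the authors' deposited ALKBH5 table. SENP7 exceeded SENP6 by 1.77 log2 units in the authors' deposited ALKBH5 table and by 1.51 in the one for RBM33. It overlaps no other listed gene, and it had an average log2 CPM of 3.97 and 4.15 in the authors' deposited tables.

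The modifiers SUMO2 and SUMO3 had the most negative values of the members. SUMO3 (ENSG00000184900, chromosome 21, 44805617 to 44818779, minus strand) stood at -1.55 (adjusted p = 7.38e-06) and -1.32 (adjusted p = 2.97e-05) in the authors' deposited tables for ALKBH5 and RBM33. SUMO2 (ENSG00000188612, chromosome 17, 75165586 to 75182959, minus strand) stood at -1.46 (adjusted p = 1.71e-06) and -1.25 (adjusted p = 7.71e-05) in the same order of the authors' deposited tables. The pair differed by no more than 0.09 log2 units within either of the authors' deposited tables. SUMO2 and SUMO3 lie on different chromosomes, but their coding sequences are alike and processed SUMO2 copies exist, so reads may be shared. The SUMO2 pseudogenes SUMO2P1, SUMO2P17 and SUMO2P21 had rows, with average log2 CPM of at most 1.93 in either of the authors' deposited tables. SUMO2 also overlaps JPT1 over 2696 bases on the same strand, and JPT1 was negative too, at -0.96 (adjusted p = 0.000323) and -1.41 (adjusted p = 0.0358) in the authors' deposited tables.

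Abundance is the second quantity in the tables, given as 1 average per gene and table, with no values for pull-down and input apart. Per kilobase of listed gene length, SUMO3 (5.18) and SUMO2 (5.15) had the highest average log2 CPM in the authors' deposited ALKBH5 table, and SENP3 followed at 4.83. Among the other proteases the order of that level was SENP6 (3.28), SENP1 (2.78), SENP2 (2.69), SENP5 (2.42) and SENP7 (1.29) in the authors' deposited ALKBH5 table. The authors' deposited table for RBM33 gave SUMO2 5.24, SUMO3 4.91, SENP3 4.16, SENP6 3.38, SENP2 3.00, SENP1 2.96, SENP5 2.43 and SENP7 1.48 on the same scale. SUMO2 and SUMO3, and SENP1 and SENP2, thus changed places between the tables. With no value per library, it cannot be said which neighbours in this order differ beyond their spread. The members with the 3 highest levels per kilobase were all negative and the one with the lowest was the positive one. Between them the order did not hold: SENP1 and SENP2 were negative, but SENP6 above them and SENP5 below them were not called. The level is divided by listed length, which itself runs with the values, and its relation to the sign was not tested.

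Listed gene length runs with the values in both tables, so each member was set beside protein-coding genes of like length. The listed length can exceed that of 1 mRNA. The 13210 protein-coding genes were cut into 5 equal classes by length. From the shortest to the longest class, the median log2 fold change went from -0.81 to 0.54 in the authors' deposited ALKBH5 table and from -0.90 to 0.54 in the one for RBM33. SUMO3 (2732 bases) lay 0.74 below the median of its class and SUMO2 (3348 bases) 1.10 below in the authors' deposited ALKBH5 table. In the authors' deposited RBM33 table they lay 0.42 and 0.80 below, where 31.2% and 17.1% of the genes of their classes were lower. Both modifiers were thus short and lower than the middle of genes as short as they are. Among the proteases, SENP2, SENP5 and SENP7 fall in the same class, from 6134 to 8650 bases, whose median was 0.18 in the authors' deposited ALKBH5 table. SENP7 (6396 bases) lay 1.41 above that median, SENP5 (7035 bases) 0.07 below it and SENP2 (7102 bases) 1.26 below it in the authors' deposited ALKBH5 table. For RBM33 they lay 1.22 above, 0.12 above and 1.25 below the class median of 0.19 in the authors' deposited table. Only 7.95% of the genes in that class were lower than SENP2, and 90.6% were lower than SENP7, in the authors' deposited ALKBH5 table. SENP7 and SENP2 thus differed by 2.67 and 2.47 log2 units in the authors' deposited tables at nearly the same listed length. SENP6, with the longest listed length (11417 bases), was near 0 but lay 0.72 and 0.64 below its class in the authors' deposited tables for ALKBH5 and RBM33. In all, 7 of the 8 members lay below the median of their length class for ALKBH5 and 6 for RBM33, by the authors' deposited values.

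**Figure D2:**
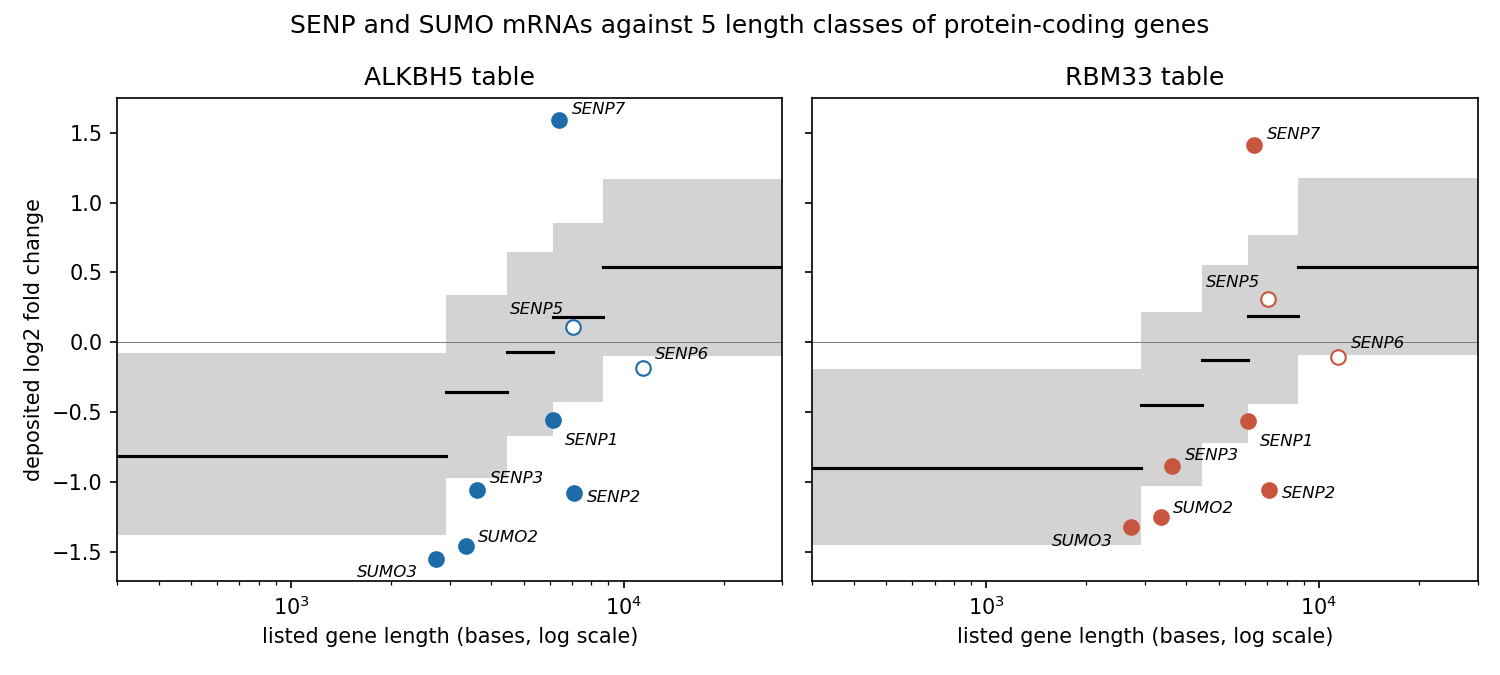
Deposited log2 fold change (vertical axis) against listed gene length in bases (horizontal axis, log scale) for the 8 mRNAs; black lines are the medians and grey bands the interquartile ranges of 5 length classes of protein-coding genes, open points were not called, and the outermost classes are drawn to the axis limits. SENP7 lies above and SENP2 below the band of the class that both belong to, in both tables.

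Abundance also runs with the values: the median of protein-coding genes went from 0.29 in the least to -0.57 in the most abundant of 5 classes in the authors' deposited ALKBH5 table. SUMO2, SUMO3, SENP3 and SENP6 belonged to the most abundant class in both of the authors' deposited tables. Of the genes in that class, 17.8% were lower than SUMO2, 15.0% lower than SUMO3 and 33.0% lower than SENP3 in the authors' deposited ALKBH5 table. The shares were 26.0%, 23.5% and 40.2% in the authors' deposited RBM33 table, nearer to the middle of the class. SENP6 lay on the upper side, with 62.8% and 67.0% of the class below it in the authors' deposited tables for ALKBH5 and RBM33. SENP7 belonged to the middle class, whose median was -0.09, and 93.6% of that class was lower than SENP7 in the authors' deposited ALKBH5 table. The part of length and abundance in the members' values was not tested.

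The rest of the SUMO pathway held calls in both directions. Of a list of 25 further genes, 23 had a row. The list includes SENP8, which acts on NEDD8 and not on SUMO and counts among the positive genes for RBM33. The authors' deposited ALKBH5 table had 11 of them positive and 8 negative (median 0.29), and the RBM33 one had 8 positive and 7 negative (median 0.07). Positive calls made up 30.5% and negative ones 29.1% of the whole ALKBH5 table as deposited by the authors, and 24.0% and 27.0% of the RBM33 one. SUMO4 and SP100 had no row. The enzyme that activates SUMO was on the side of the modifiers. SAE1 and UBA2, the subunits of the E1 activating enzyme, stood at -1.11 (adjusted p = 3.19e-06) and -0.92 (adjusted p = 1.03e-05) in the authors' deposited ALKBH5 table. They stood at -1.22 (adjusted p = 5.75e-05) and -0.90 (adjusted p = 0.000513) in the authors' deposited RBM33 table. RWDD3, a cofactor that promotes conjugation, stood at 0.29 (adjusted p = 0.333) and -1.05 (adjusted p = 0.056) in the authors' deposited tables and was not called.

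E3 ligases, which choose the proteins to be modified, and related proteins had 7 positive and 2 negative of 11 genes in the authors' deposited ALKBH5 table, and 5 positive and 1 negative in the one for RBM33. RANBP2, the SUMO ligase of the nuclear pore, stood at 1.12 (adjusted p = 7.6e-06) and 1.30 (adjusted p = 0.000119) in the authors' deposited tables. ZNF451, a ligase that builds SUMO2 and SUMO3 chains, stood at 1.13 (adjusted p = 1.45e-05) and 0.84 (adjusted p = 0.00117) there, in the authors' deposited values. PIAS2 (1.07 and 1.00) had positive calls in each of the authors' deposited tables, as had the PIAS-like ZMIZ1 (0.99 and 0.99) and ZMIZ2 (1.25 and 0.52). PIAS1 was positive for ALKBH5 alone (0.64, adjusted p = 0.00321; 0.41, adjusted p = 0.0819 for RBM33) in the authors' deposited tables, a difference that was not tested. NSMCE2, the ligase of the SMC5/6 complex, went the other way, at -1.19 (adjusted p = 0.000893) and -1.34 (adjusted p = 0.000324) in the authors' deposited tables. PIAS3 was negative for ALKBH5 (-0.37, adjusted p = 0.0303) and not called for RBM33 (-0.02, adjusted p = 0.939) in the authors' deposited tables. TRIM28 and PIAS4 were called in neither. Of the 11 genes, 9 lay above the median of their length class in each of the authors' deposited tables. RANBP2, ZNF451, PIAS2, ZMIZ1 and PIAS1 belonged to the longest class, whose median was 0.54 in each of the authors' deposited tables. In that order, 73.2%, 73.5%, 71.5%, 68.2% and 54.4% of the class lay below them in the authors' deposited ALKBH5 table. The shares were 79.1%, 62.2%, 69.0%, 68.6% and 43.7% in the authors' deposited RBM33 table. The ubiquitin ligases that recognise SUMO chains, RNF4 (0.63 and 0.45) and RNF111 (0.77 and 0.72), were positive in the authors' deposited ALKBH5 table, and RNF111 in the RBM33 one too.

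**Figure D3:**
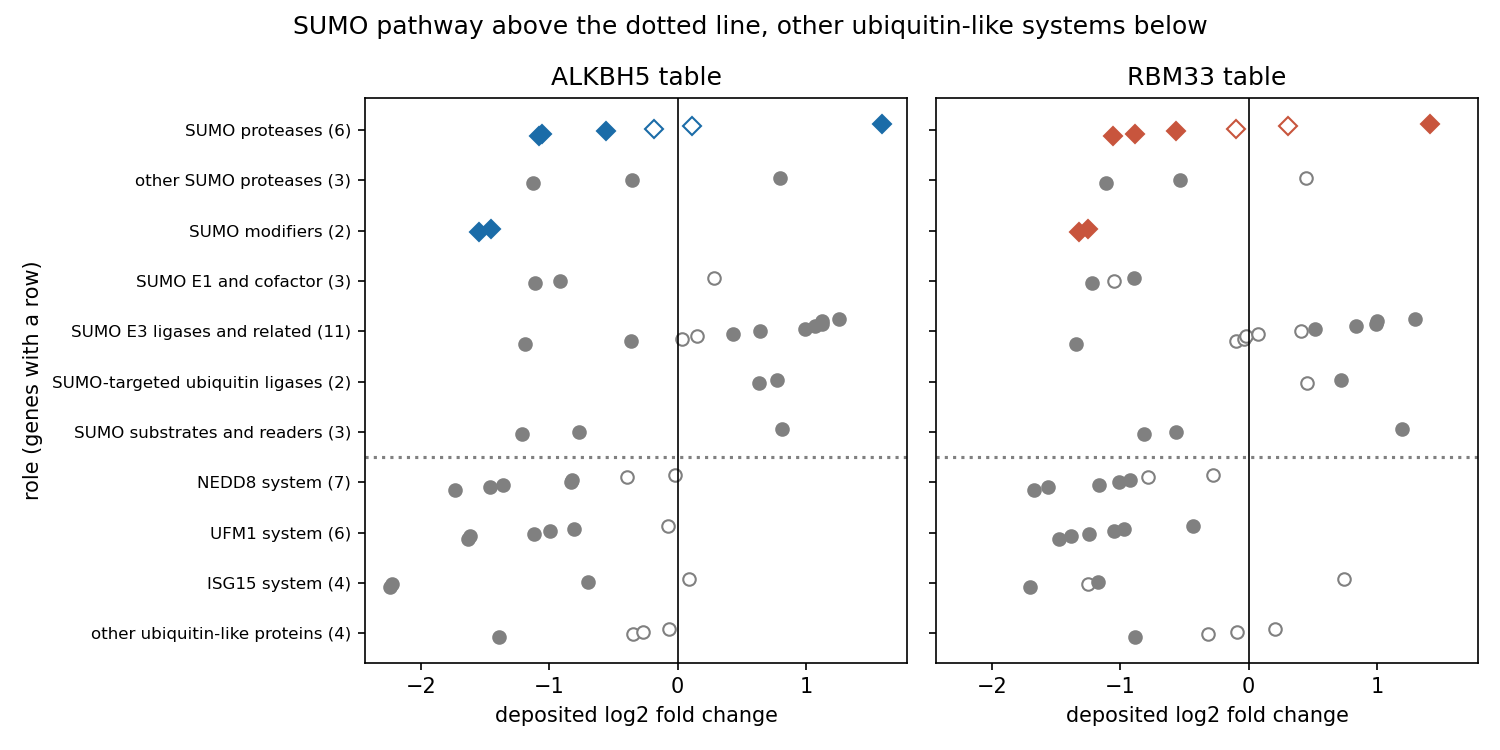
Deposited log2 fold changes (horizontal axis) by role (vertical axis, number of genes with a row in brackets) in the tables for ALKBH5 (left) and RBM33 (right); diamonds are the 8 members, grey circles other genes, open symbols were not called, and SENP8 is left out. The modifiers lie to the left of 0 and most E3 ligases to the right, and 14 of 21 genes of other ubiquitin-like systems are negative and 0 positive in each table. Of all listed genes, 29.1% are negative and 30.5% positive for ALKBH5, and 27.0% and 24.0% for RBM33. The counts take no account of gene length or abundance.

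SUMO proteases outside the SENP family held both directions. DESI2 stood at -1.13 (adjusted p = 6.98e-06) and -1.11 (adjusted p = 0.00011) and DESI1 at -0.36 (adjusted p = 0.0187) and -0.54 (adjusted p = 0.0093) in the authors' deposited tables for ALKBH5 and RBM33. USPL1, the SUMO protease of Cajal bodies, stood at 0.80 (adjusted p = 0.025) and 0.45 (adjusted p = 0.157) in the same order in the authors' deposited tables. SENP8, the family member that acts on NEDD8 and not on SUMO, stood at 0.15 (adjusted p = 0.752) and 0.96 (adjusted p = 0.0366) in the authors' deposited tables, at an average log2 CPM of 2.18 and 2.62. Among SUMO targets, RANGAP1, the substrate held at the nuclear pore by RANBP2, was negative (-0.77 and -0.56), as was DAXX, a histone chaperone that binds SUMO (-1.21 and -0.81), in the authors' deposited tables. PML, which builds nuclear bodies through SUMO, was positive (0.81 and 1.19) in the authors' deposited tables.

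Likeness of pattern was measured as the distance between genes over both log2 fold changes, among members and pathway genes. SUMO2 and SUMO3 were each other's nearest gene (distance 0.11 log2 units), SENP2 was nearest to DESI2 (0.07), SENP3 to UBA2 (0.14) and SENP1 to DESI1 (0.20) in the authors' deposited tables. The nearest gene to SENP7 was RANBP2, at 0.48 log2 units in the authors' deposited tables. With 2 comparisons and a short list such a distance separates little: of all listed genes, 620 lay nearer to SENP1 than DESI1 did and 964 nearer to SENP7 than RANBP2 did.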

How the data were processed

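Per the labels' protocols, RNA was fragmented and made into stranded total RNA libraries with the Takara SMARTER Pico kit. Reads were trimmed, aligned to hg38, counted and tested with tools that include edgeR 3.24.3, HISAT2 2.1.0, Subread 1.6.4 with featureCounts, and cutadapt 1.18, per the submitters' processing notes. Strand setting, low-count filter, annotation release and contrast: not given in the sources used here. Each deposited table holds, per the file headers, average log2 CPM and log2 fold change by gene. The deposited F statistic is a score that was not used. The deposited adjusted p-value equals the Benjamini-Hochberg adjustment over the 16324 genes, as recomputed here. Groups were taken from the library titles.

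Members and lists were chosen with earlier results of these data known. All 8 members are named, every pathway gene may be, and of other ubiquitin-like systems those called with the 2 largest values per direction and table. A call is the authors' adjusted p under 0.05 in edgeR. Percentages lower and medians are over protein-coding genes, cut into 5 equal classes by listed length or abundance. Lists have counts and medians and no set test, and some genes of the pathway list are not reported here. Python 3.11.15, pandas 2.3.3 and SciPy 1.17.1 were used, and the adjustment was tested on simulated data. Alternatives were a threshold of 0.01, a minimum of 1 log2 unit, adjustment over fewer genes and another centring. No sequence is printed: the promoter windows at hand do not bear on RNA pull-downs.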

Additional observations from a re-analysis of the deposited data

How the results depend on the processing

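With calls at 0.01, 5 of the 23 pathway genes instead of 8 were positive in the authors' deposited RBM33 table (16.6% of all listed genes at that threshold). With a minimum of 1 log2 unit, 8 instead of 19 pathway genes were called for ALKBH5 (4 positive, 4 negative) and 6 instead of 15 for RBM33 (3 positive, 3 negative) in the authors' deposited tables. Of all listed genes, 21.0% were positive and 16.2% negative at that minimum for ALKBH5, and 17.1% and 16.7% for RBM33. At that minimum, negative members went from 5 to 3 for RBM33, and other ubiquitin-like genes from 14 to 9 for ALKBH5, all of them negative. Among genes of at least median abundance, 0 members instead of 1 were positive for ALKBH5, since SENP7 lies below the median. Without SENP3 and SUMO2, which overlap a gene on the same strand, 3 members were negative in each table and the members' median moved from -0.81 to -0.37 for ALKBH5 and from -0.72 to -0.33 for RBM33, an alternative chosen after seeing the data. Centring on protein-coding genes turned SENP6 to 0.030 for RBM33, where it was not called. Of 79 values of single members under other settings, 74 kept direction and call and 4 lost the call: SENP1 in 3 and SENP3 in 1. Much of that count was fixed in advance. Only the centring alters the log2 fold change, so direction could change in no other setting. SENP5 and SENP6 had no call to lose. No paired analysis was possible because single libraries have no values in the tables, and no replicate could be left out for the same reason. Depth is unknown.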

Other observations

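Other ubiquitin-like systems gave a comparison for the SUMO genes. Of 21 such genes with a row, 14 were negative and 0 positive in each of the authors' deposited tables, with medians of -0.83 for ALKBH5 and -1.01 for RBM33. Over all listed genes, 29.1% were negative and 30.5% positive in the authors' deposited ALKBH5 table, and 27.0% and 24.0% in the RBM33 one. At an unadjusted p under 0.05 of the authors' edgeR test, 0 were positive as well. USP18, the protease that removes ISG15, had -2.23 (adjusted p = 2.33e-07) and -1.71 (adjusted p = 3.81e-05) in the authors' deposited tables for ALKBH5 and RBM33. UBE2L6, the E2 enzyme for ISG15, had a low average log2 CPM of 0.84 in the authors' deposited ALKBH5 table and a log2 fold change of -2.24 (adjusted p = 0.00826). In the authors' deposited RBM33 table it stood at -1.25 (adjusted p = 0.189) and was not called. NEDD8, the modifier of cullin ligases, had -1.73 and -1.67 in the authors' deposited tables. Listed length and abundance run with the values, and the other ubiquitin-like genes were not set beside genes of like length or abundance. Their listed lengths ran from 867 bases (ISG15) to 8307 bases (DCUN1D1). By the authors' deposited values, protein-coding genes of the shortest class, up to 2919 bases, had medians of -0.81 (ALKBH5) and -0.90 (RBM33). The part of length in the list's negative values was not tested. Whether the SUMO genes differ from the other ubiquitin-like genes was not tested either.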
